A study of Homo sapiens with 4 samples.

Results

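TFEB, TFE3 and MITF, the folliculin complex (FLCN, FNIP1 and FNIP2), the Rag GTPases RRAGA, RRAGC and RRAGD, and the membrane glycoprotein GPNMB were followed in BT474, a human breast carcinoma cell line that carries an ERBB2 amplification. The cells had been exposed for 24 h to vehicle or to AICAR at 0.5 mM, a nucleoside that cells convert to an AMP mimic, which activates the energy-sensing kinase AMPK. There were 2 Affymetrix U133 Plus 2.0 arrays per group and 4 in all. The members were all probe sets annotated to a single gene symbol that is 1 of these 10. They were 30 of the 54613 probe sets tested, between 1 (RRAGA) and 5 (FNIP1) per gene. Everything here is from 1 cell line at 1 time point. Whether the replicates were separate cultures is not labelled. The p-values therefore reflect only array-to-array spread, which may be technical.

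The MiT/TFE factors are related basic helix-loop-helix transcription factors that switch on genes of lysosomes and autophagy. In nutrient-rich cells the Rag GTPases bring them to the lysosome, where the kinase mTORC1 phosphorylates them and keeps them in the cytoplasm. Folliculin, with FNIP1 or FNIP2, drives RagC and RagD into the form needed for that step, and FNIP1 is itself a substrate of AMPK. FLCN, FNIP2, RRAGC, RRAGD and GPNMB are known targets of the same factors, so the pathway contains a transcriptional feedback, and GPNMB is used as a marker of tumours with active TFE3 or lost folliculin. None of these activity steps is read by an expression array, which measures transcripts.

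Because these factors bind short E-box and M-box elements, the promoters of the members with matches are shown. The table of RefSeq promoters used here (GRCh38.p14) held 13 promoters for 8 of the 10 genes, each running from 250 bases before to 50 after a transcript start. Those of RRAGA and RRAGD were not analysed here. Of these promoters, 4 held a match, those of GPNMB, RRAGC and FNIP1 and the second of the 2 promoters of FNIP2. Capitals mark the E-box CACGTG or the M-box TCATGTG, the latter here always as its reverse complement CACATGA. The GPNMB promoter is chr7:23246525-23246824 (plus strand), RRAGC chr1:38859723-38860022 (minus strand), FNIP1 chr5:131796968-131797267 (minus strand) and the FNIP2 promoter chr4:158805589-158805888 (plus strand). Each is written 5′ to 3′ along its gene.
GPNMB: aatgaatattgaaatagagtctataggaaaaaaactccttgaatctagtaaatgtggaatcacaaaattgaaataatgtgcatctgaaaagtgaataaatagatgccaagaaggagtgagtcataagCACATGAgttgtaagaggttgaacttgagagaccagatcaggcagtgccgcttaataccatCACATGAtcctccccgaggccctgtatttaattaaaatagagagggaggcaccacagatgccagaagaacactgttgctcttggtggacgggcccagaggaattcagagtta
RRAGC: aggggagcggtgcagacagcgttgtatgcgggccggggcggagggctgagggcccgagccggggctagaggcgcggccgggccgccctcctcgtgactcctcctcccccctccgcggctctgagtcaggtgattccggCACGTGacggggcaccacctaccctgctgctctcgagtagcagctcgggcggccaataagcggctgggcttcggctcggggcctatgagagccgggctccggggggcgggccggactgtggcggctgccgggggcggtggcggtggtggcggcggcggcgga
FNIP1: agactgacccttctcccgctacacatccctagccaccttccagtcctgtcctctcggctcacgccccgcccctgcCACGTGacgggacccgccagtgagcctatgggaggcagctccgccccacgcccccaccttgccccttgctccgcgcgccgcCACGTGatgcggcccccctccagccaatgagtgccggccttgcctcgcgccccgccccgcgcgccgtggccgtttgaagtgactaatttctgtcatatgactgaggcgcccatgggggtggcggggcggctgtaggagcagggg
FNIP2 (second listed promoter): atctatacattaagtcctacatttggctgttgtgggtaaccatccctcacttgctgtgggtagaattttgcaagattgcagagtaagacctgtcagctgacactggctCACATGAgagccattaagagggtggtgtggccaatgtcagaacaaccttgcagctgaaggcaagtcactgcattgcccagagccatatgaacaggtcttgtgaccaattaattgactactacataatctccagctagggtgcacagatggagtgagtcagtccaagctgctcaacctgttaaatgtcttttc

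The GPNMB promoter held 2 M-boxes, whose first bases lay 123 and 62 bases before the start. That of FNIP2 held 1, at 142 bases before the start. The E-box stood 112 bases before the start of RRAGC, and 175 and 94 bases before that of FNIP1. Searched on both strands, the M-box was found in 2.92% of the 35116 promoters of the same length and the palindromic E-box in 7.26%. The CLEAR-type element, here the E-box with GT directly before it and AC directly after it, was found in 0.353% of all promoters and in 0 of the 13 listed here. These matches describe letters in a window and say nothing about binding, and the transcript start used in BT474 cells was not measured.

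**Figure D1:**
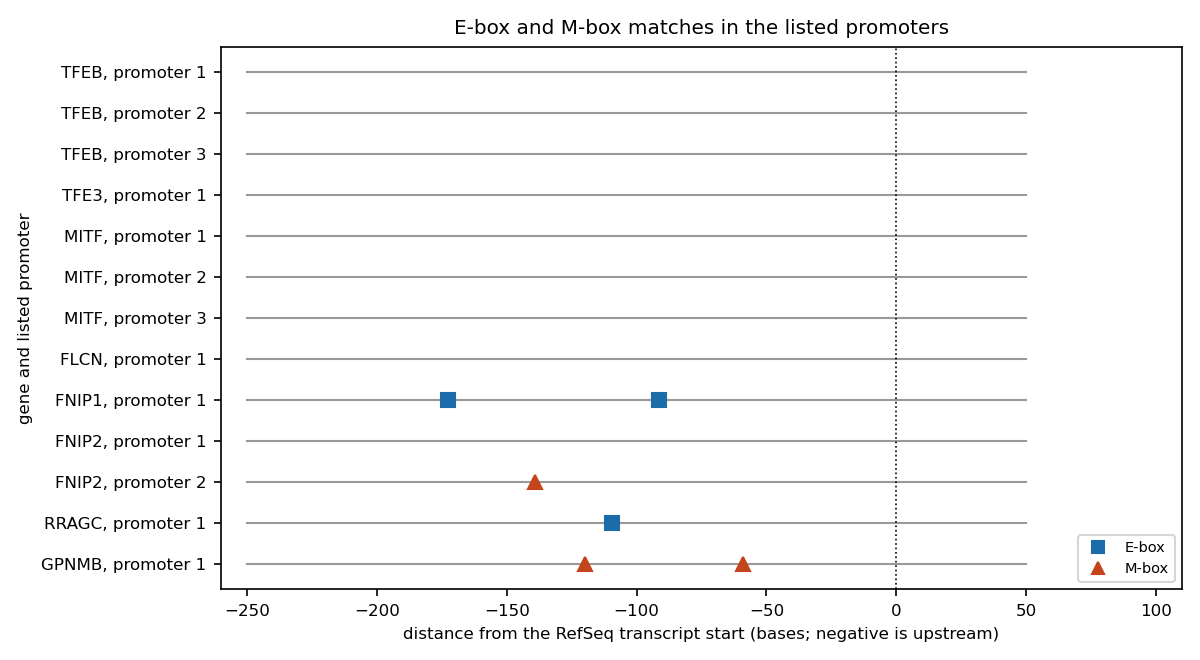
Map of the 13 listed promoters of 8 member genes, each a line from 250 bases before to 50 after the RefSeq transcript start (x axis, bases from the start, 0 at the dotted line). Squares mark E-box and triangles M-box matches on either strand: GPNMB has 2 M-boxes, FNIP1 has 2 E-boxes, and FNIP2 and RRAGC have 1 match each.

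The array medians lay between 6.37 and 6.40 (log2) on the 4 arrays. Values are log2 expression values as the authors deposited them, and rose and fell are used only where the limma adjusted p over all 54613 probe sets was under 0.05. Counts under any other threshold or set of probe sets name it beside them. The markers of luminal breast cells and of this line were well measured, with ERBB2 at a mean of 13.31 (log2) on the vehicle and 13.36 on the AICAR arrays, and 0 of 10 passed the test (limma; without adjustment, 0 with a positive and 1 with a negative difference had p under 0.05). Of all 19775 genes, each read by its probe set of highest mean, 0.951% were called higher and 0.738% lower. An unadjusted p under 0.05 was reached by 8.87% with a positive and 8.0% with a negative difference. The largest differences among the luminal markers were -0.31 for the estrogen receptor gene ESR1 (adjusted p = 0.140) and -0.27 for XBP1 (adjusted p = 0.340). Probe sets of these genes disagreed, the 9 of ESR1 ranging from -0.31 to 0.12 and the 2 of XBP1 from -0.27 to 0.065. Those of ERBB2, 3 in all, ranged from -0.083 to 0.47. A probe set is called dim where its mean lay below 6.11 (log2), the 30th percentile over genes. Of the 30 member probe sets, 20 were above this bound and 10 were dim, and all 10 genes kept at least 1 probe set above it.

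GPNMB was the member that rose with AICAR, and it did so on both of its probe sets. Both RRAGD probe sets, 3 of FNIP2 and 1 each of RRAGC, FNIP1 and FLCN had positive differences whose 95% confidence intervals lay above 0, but they did not pass the adjusted threshold. TFEB, TFE3 and MITF transcripts differed by between -0.15 and 0.10 (log2). In all, 2 of the 30 member probe sets were called higher and 0 lower (limma), against 0.599% of all probe sets tested called higher and 0.888% called lower. An unadjusted p under 0.05 was reached by 10 member probe sets with a positive and 0 with a negative difference, against 6.92% and 9.19% of all probe sets. An adjusted p under 0.1 (limma) was reached by 6 with a positive and 0 with a negative difference. Of all 54613 probe sets, 897 (1.64%) with a positive and 1493 with a negative difference reached it. The median difference was 0.097 (log2) over the 30 member probe sets and 0.010 over all probe sets tested. The members were chosen with earlier results of these data known. The shares of all probe sets therefore give scale only and are no test of the members as a set.

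**Figure D2:**
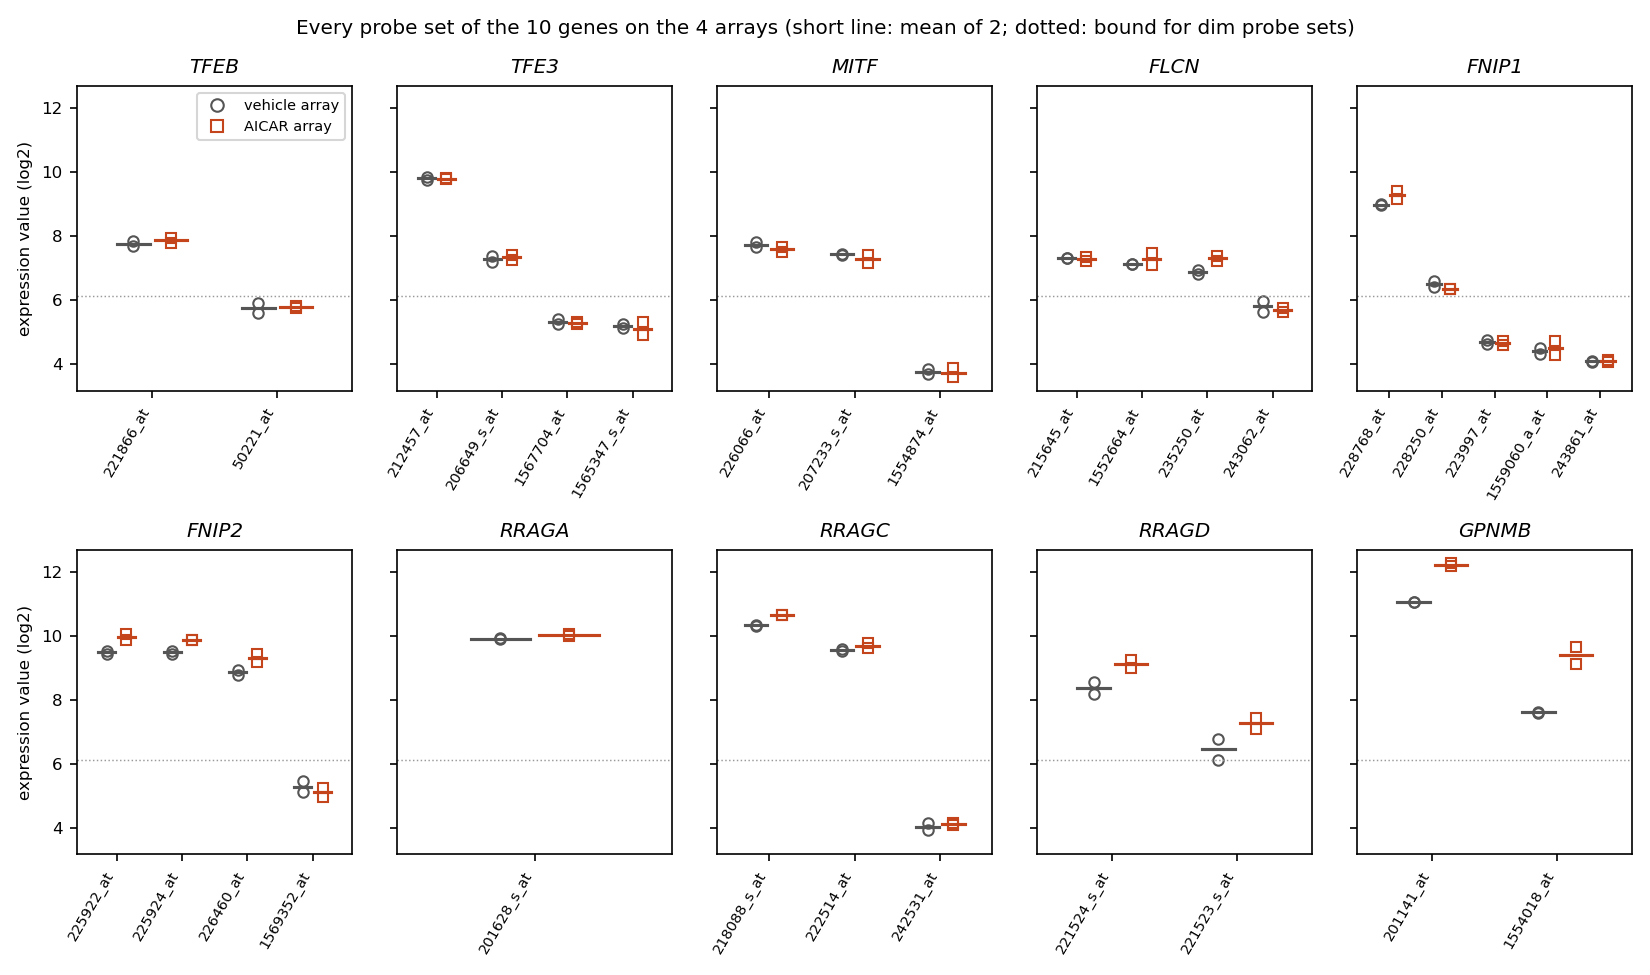
Log2 expression value (y axis) of every probe set of the 10 genes (x axis, 1 panel a gene) on the 2 vehicle arrays (circles) and the 2 AICAR arrays (squares), with the mean of each pair as a short line and the bound for dim probe sets, 6.11, dotted. The AICAR pair stands clear above the vehicle pair for both GPNMB and both RRAGD probe sets and for 3 of the 4 FNIP2 probe sets, while the TFEB and TFE3 pairs overlap.

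GPNMB encodes a glycoprotein of lysosomes, melanosomes and the cell surface. Its probe set 201141_at read 11.04 on both vehicle arrays and 12.17 and 12.26 on the AICAR arrays. The 2 values of each group were close and the groups stood far apart, a 2.25-fold rise (log2 difference 1.17, SE 0.0877, limma adjusted p = 0.00798, n = 2 per group). The other probe set, 1554018_at, read 7.57 and 7.63 with vehicle and 9.12 and 9.66 with AICAR. It rose 3.45-fold (log2 1.79, SE 0.167, limma adjusted p = 0.0138), with a wider gap between the 2 AICAR arrays than between the vehicle arrays. Among the 54613 probe sets, these differences ranked 33 and 3 from the top. With 1 probe set per gene, the one of highest mean, GPNMB ranked 20 of 19775 genes. Both calls were lost when any 1 array was left out, with adjusted p of 0.0703 to 0.145 for 201141_at and 0.0702 to 0.185 for 1554018_at, while the differences stayed at 1.13 to 1.21 and 1.52 to 2.06 (log2). At most 1 of all 54613 probe sets passed in any of those fits, which rest on 3 arrays.

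GPNMB is also a gene of macrophages and melanocytes, so their markers were read on the same arrays. Of 9 measured macrophage markers 0 passed the test in either direction, and 5 were dim, CD163 and MRC1 among them. Their mean level was 5.84 to 5.89 (log2) on the vehicle arrays and 5.93 to 5.97 on the AICAR arrays. The largest differences were those of the lysozyme gene LYZ, at 0.40 (limma adjusted p = 0.0791), and the integrin gene ITGAM, at 0.13. LYZ was itself dim. Of 9 melanocyte markers 0 passed and 4 were dim, including TYRP1 and MLANA, with a mean level of 6.04 and 6.14 on the vehicle arrays and 6.20 and 6.14 on the AICAR arrays. The melanosome genes PMEL (0.46, adjusted p = 0.221) and GPR143 (-0.42, adjusted p = 0.0881) had the largest differences, in opposite directions. Without adjustment, at p under 0.05 (limma), 1 macrophage marker had a positive and 0 a negative difference, and 2 melanocyte markers a positive and 1 a negative one, against 8.87% and 8.0% of all genes. The part of such cells in the GPNMB signal was not tested, and in RNA from a whole culture more cells of a type and more RNA per cell, or fewer cells and less RNA per cell, cannot be told apart.

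RRAGA, RRAGC and RRAGD encode small GTPases that pair as RagA or RagB with RagC or RagD on the lysosome. RRAGD had the largest differences of the 3. Its probe set 221524_s_at read 8.56 and 8.18 on the vehicle arrays and 8.998 and 9.253 on the AICAR arrays. The groups did not overlap, and the difference was 0.76 (log2, 1.69-fold, SE 0.148, 95% confidence interval 0.40 to 1.11, limma adjusted p = 0.0635). Probe set 221523_s_at read 6.77 and 6.13 with vehicle and 7.09 and 7.42 with AICAR, a difference of 0.81 (1.75-fold, SE 0.212, adjusted p = 0.121). On both probe sets vehicle replicate 2 was the lowest array and AICAR replicate 2 the highest, and the spread between vehicle arrays was wider than for GPNMB. Both identifiers end in _s_at, which marks probes shared by several transcripts, so related transcripts may add to them. The same limit holds for RRAGC 218088_s_at, RRAGA 201628_s_at, TFE3 206649_s_at and 1565347_s_at, and MITF 207233_s_at. The RRAGD differences ranked 151 and 122 from the top of all probe sets. Left out in turn, the arrays gave differences of 0.57 to 0.94 for 221524_s_at and 0.48 to 1.13 for 221523_s_at.

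RRAGC, the close relative of RRAGD, read 10.34 and 10.31 with vehicle and 10.65 and 10.64 with AICAR on probe set 218088_s_at. The pairs were tight and separate, and the difference was 0.32 (log2, 1.24-fold, 95% confidence interval 0.11 to 0.52, limma adjusted p = 0.129). Its second probe set above the dim bound, 222514_at, read 9.59 and 9.51 against 9.77 and 9.61. There the difference was 0.14 (adjusted p = 0.545, 95% confidence interval -0.091 to 0.37), and the highest vehicle array lay just under the lowest AICAR array. The third probe set, 242531_at, was dim and differed by 0.092. RRAGA, by its single probe set 201628_s_at, went from 9.88 and 9.93 to 10.003 and 10.039, so the groups differed by 0.11 (adjusted p = 0.585, 95% confidence interval -0.091 to 0.32). Whether RRAGD differed more than RRAGC or RRAGA was not tested.

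FNIP2 and FNIP1 encode the folliculin-interacting proteins, and the 3 FNIP2 probe sets above the dim bound gave similar differences. Probe set 225922_at read 9.53 and 9.42 with vehicle and 9.87 and 10.04 with AICAR (log2 difference 0.48, 1.40-fold, SE 0.101, limma adjusted p = 0.0736). On 225924_at the values were 9.54 and 9.44 against 9.85 and 9.88 (difference 0.38, 1.30-fold, adjusted p = 0.0944). On 226460_at they were 8.94 and 8.77 against 9.17 and 9.42 (difference 0.44, 1.36-fold, adjusted p = 0.124). In all 3 the AICAR pair lay above the vehicle pair, and the 95% confidence intervals together ran from 0.16 to 0.72. The remaining probe set, 1569352_at, was dim and differed by -0.18 with overlapping pairs.

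For FNIP1 the probe sets disagreed. The brightest, 228768_at, read 8.99 and 8.97 with vehicle and 9.17 and 9.41 with AICAR, a difference of 0.31 (log2, 1.24-fold, 95% confidence interval 0.057 to 0.56, limma adjusted p = 0.217). On 228250_at the values were 6.60 and 6.42 against 6.36 and 6.35, a difference of -0.15 (adjusted p = 0.508), so that the AICAR pair lay below the vehicle pair. The other 3 probe sets were dim and differed by -0.019 (223997_at), 0.10 (1559060_a_at) and -0.0038 (243861_at). The mean over all 5 probe sets differed by 0.047 (adjusted p = 0.791).

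FLCN, the gene of folliculin, also gave no single answer. On 235250_at it read 6.82 and 6.96 with vehicle and 7.38 and 7.24 with AICAR, a difference of 0.42 (log2, 1.34-fold, SE 0.0998, 95% confidence interval 0.18 to 0.66, limma adjusted p = 0.0965). On 1552664_at the vehicle arrays were at 7.12 and 7.12 and the AICAR arrays at 7.09 and 7.46. This difference of 0.16 came from AICAR replicate 2, since AICAR replicate 1 lay below both vehicle arrays, and without AICAR replicate 2 it was -0.029. The probe set of highest mean, 215645_at, read 7.30 and 7.31 against 7.22 and 7.33 (difference -0.034, adjusted p = 0.895), and the dim 243062_at differed by -0.11. Outside the rule, a probe set annotated to both PLD6 and FLCN, 227037_at, read 8.54 and 8.51 with vehicle and 8.31 and 8.34 with AICAR (difference -0.20, adjusted p = 0.314). It was looked at after the members' values were known, and whose transcript it reads cannot be told apart.

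**Figure D3:**
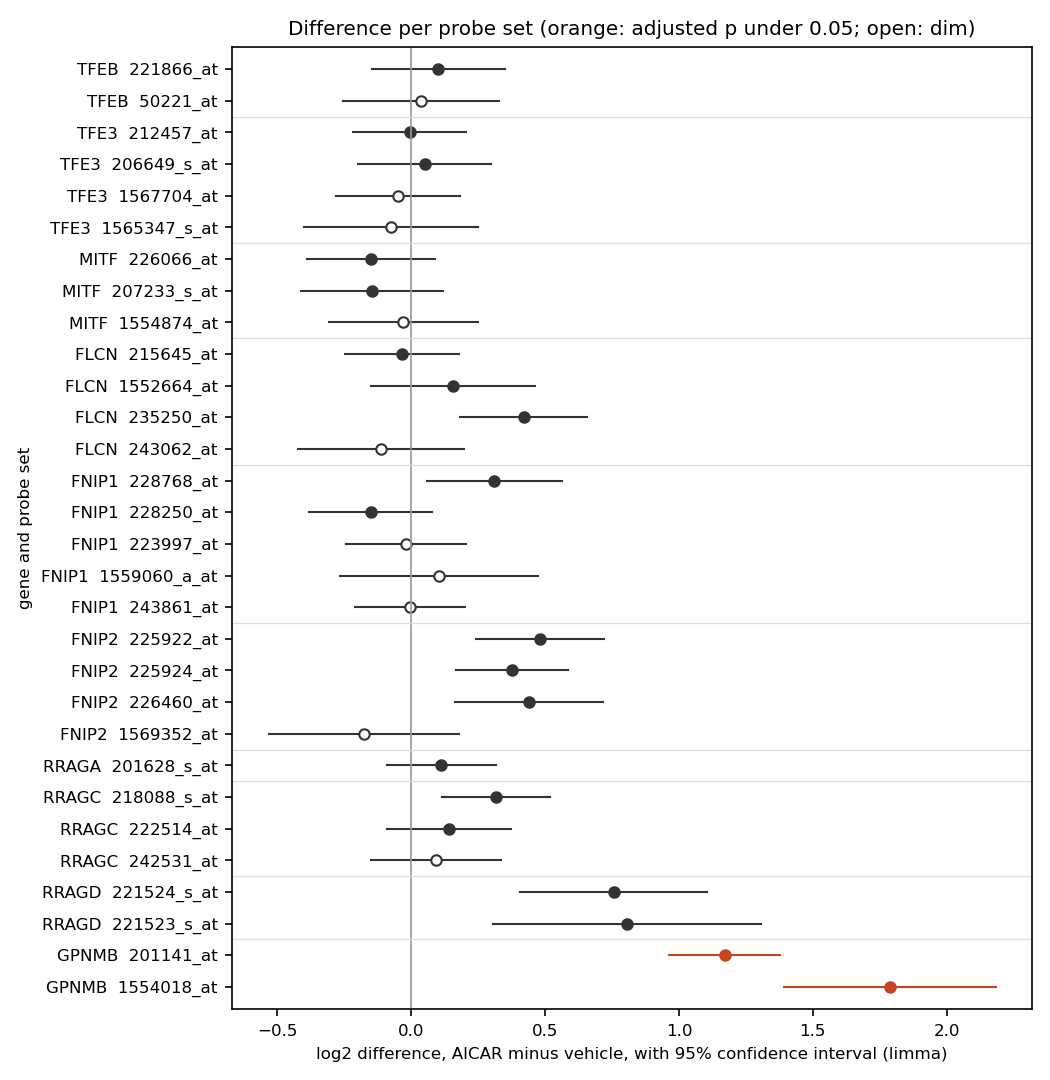
Log2 difference, AICAR minus vehicle (x axis), of the 30 member probe sets (y axis, by gene), with 95% confidence intervals from limma. Orange marks an adjusted p under 0.05 and open points are dim: both GPNMB probe sets are orange, at 1.17 and 1.79, the intervals of RRAGD and of the brighter FNIP2 probe sets lie above 0, and those of the 9 TFEB, TFE3 and MITF probe sets include 0.

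The transcripts of the factors themselves showed no difference that passed. TFEB read 7.84 and 7.69 with vehicle and 7.96 and 7.78 with AICAR on 221866_at, overlapping pairs with a difference of 0.10 (log2, 95% confidence interval -0.15 to 0.35, limma adjusted p = 0.696). TFE3 read 9.85 and 9.76 against 9.77 and 9.82 on 212457_at, a difference of -0.0060 (adjusted p = 0.985, 95% confidence interval -0.22 to 0.20) that was 0.028 after quantile normalization. Its 206649_s_at differed by 0.050 (7.38 and 7.21 against 7.42 and 7.27). These pairs overlapped as well.

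MITF, known for its role in melanocytes, was the member whose probe sets above the dim bound all had negative differences. On 226066_at it read 7.81 and 7.66 with vehicle and 7.52 and 7.65 with AICAR (log2 difference -0.15, 95% confidence interval -0.39 to 0.088, limma adjusted p = 0.527). The AICAR pair lay below the vehicle pair there, but the nearest arrays almost met. On 207233_s_at the values were 7.45 and 7.41 against 7.15 and 7.42 (difference -0.15, adjusted p = 0.585), with overlap. The 4 dim probe sets of the factors differed by 0.036 (TFEB 50221_at), -0.049 and -0.075 (TFE3 1567704_at and 1565347_s_at) and -0.030 (MITF 1554874_at). Over the 5 factor probe sets above the dim bound, the 95% confidence intervals ran from -0.41 to 0.35 (log2), so changes of those sizes cannot be told from none with 2 arrays per group.

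Counted by separation, 12 of the 30 member probe sets had both AICAR arrays above both vehicle arrays, 2 had them below and 16 overlapped, against 23.6% above and 23.3% below among all probe sets tested. The 12 belonged to GPNMB (2), RRAGD (2), RRAGC (2), RRAGA (1), FNIP2 (3), FNIP1 (1) and FLCN (1). All 10 dim probe sets overlapped, with differences between -0.18 and 0.10. Probe sets of a gene share its transcripts, and so are not independent of each other. The choice of members with earlier results known limits this comparison too.

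**Figure D4:**
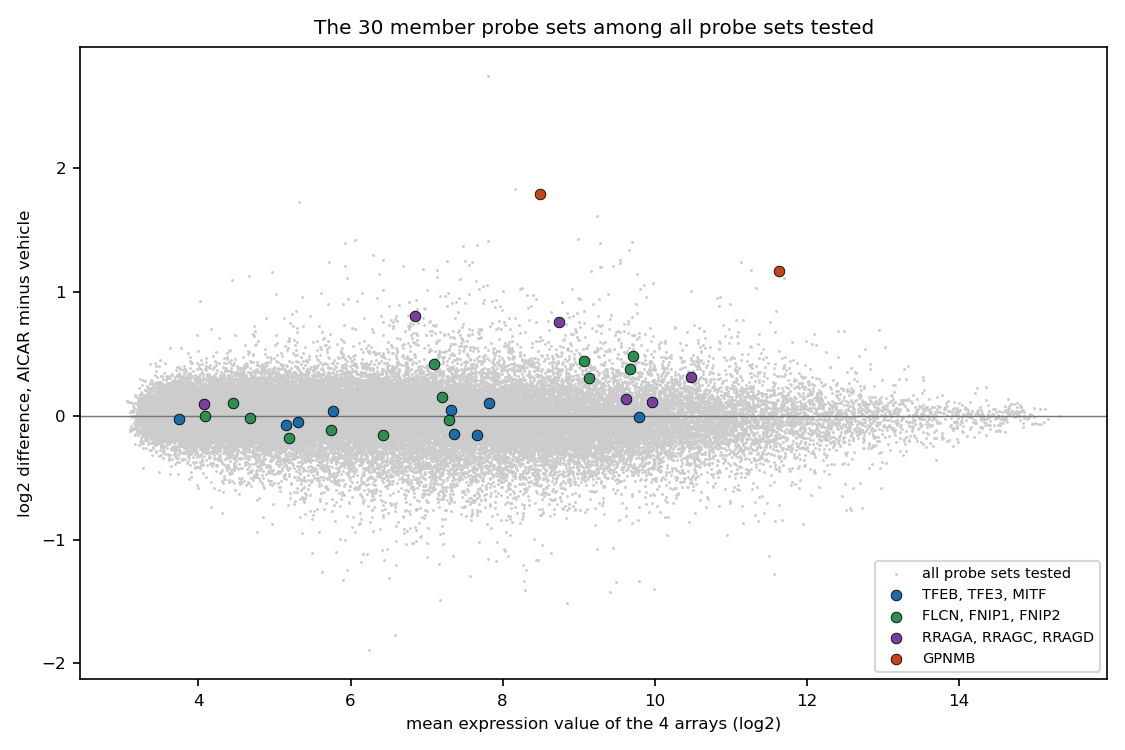
Log2 difference, AICAR minus vehicle (y axis), against the mean log2 value of the 4 arrays (x axis) for all 54613 probe sets tested (grey) and the 30 member probe sets (coloured by role). GPNMB and RRAGD lie above most of the cloud, ranked 3, 33, 122 and 151 from the top, and the TFEB, TFE3 and MITF probe sets lie within it.

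How many members passed differed with the probe sets tested and with the variance model. With dim probe sets left out, 6 member probe sets were called higher and 0 lower, against 2.72% and 4.62% of the 29953 probe sets then tested. The 4 gained calls were RRAGD 221524_s_at (limma adjusted p = 0.0357), FNIP2 225922_at (0.0351) and 225924_at (0.0406), and FLCN 235250_at (0.0466). With 1 probe set per gene and no dim genes, GPNMB, RRAGD, FNIP2 and RRAGC (adjusted p = 0.0360) were the 4 members called higher, against 4.63% of genes. With a trend and robust variances 9 member probe sets were called higher, against 2.64% of all, both of RRAGD and 3 of FNIP2 among them.

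Other genes of the pathway were read from lists, each gene by its probe set of highest mean. These lists, too, were chosen with earlier results of these data known, so shares of all genes give scale only. Over all 19775 genes so represented, 0.951% were called higher and 0.738% lower, with a median difference of 0.022 (log2); at an unadjusted p under 0.05 these shares were 8.87% and 8.0%. A list on nutrient sensing held the Rag, Ragulator and GATOR complexes, which report amino acid supply to mTORC1. It also held genes outside these complexes, such as those of KICSTOR. Of its 24 measured genes, 0 passed in either direction (limma). Without adjustment, 4 genes with a positive and 2 with a negative difference had p under 0.05 (limma). Their median difference was 0.031. The largest were those of RRAGB, the close relative of RRAGA, which read 7.85 and 7.38 with vehicle and 8.13 and 8.20 with AICAR (difference 0.55, adjusted p = 0.143), and of ITFG2, a subunit of the KICSTOR complex (-0.43, adjusted p = 0.0749). The 4 probe sets of ITFG2 ranged from -0.43 to 0.30. Of 30 regulators and relatives of the factors and of folliculin, among them mTOR, calcineurin and the cytoplasmic anchors of the 14-3-3 family, 0 passed (limma; without adjustment, 0 with a positive and 1 with a negative difference had p under 0.05), with a median of -0.032. The largest differences there were -0.25 for the 14-3-3 gene YWHAE (adjusted p = 0.243) and -0.22 for TFEC, the remaining MiT/TFE factor, which was dim (adjusted p = 0.405).

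Among 37 lysosome and autophagy genes listed as TFEB targets, 2 rose and 0 fell (limma; without adjustment, p under 0.05 was reached by 8 with a positive and 2 with a negative difference). In all there were 26 positive and 11 negative differences, with a median of 0.078 (log2). The 2 genes with a negative difference and an unadjusted p under 0.05, named after their values were seen, were the lysosomal sulfatase SGSH (-0.36, adjusted p = 0.196) and the autophagy kinase ULK1 (-0.34, adjusted p = 0.130). WIPI1, which binds the forming autophagosome, read 7.52 and 7.36 with vehicle and 8.29 and 8.46 with AICAR, a 1.91-fold rise (log2 0.94, SE 0.105, adjusted p = 0.0191), and its other probe set differed by 1.06. NEU1, the lysosomal sialidase, went from 9.38 and 9.43 to 10.03 and 10.08, a 1.57-fold rise (log2 0.65, SE 0.0864, adjusted p = 0.0270). Both groups of arrays were tight for NEU1, and in neither gene did the pairs overlap. Neither gene passed when any 1 array was left out. In this list 20 genes had both AICAR arrays above both vehicle arrays and 7 below, against 27.6% and 22.9% of all genes.

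Of 12 metabolic genes listed as TFEB or TFE3 targets, 1 rose and 0 fell (limma; without adjustment, 3 with a positive and 4 with a negative difference had p under 0.05), with a median of -0.064 (log2). The gene that rose was INSIG1, which holds back sterol synthesis and is induced by SREBP as well, at 11.02 and 11.13 with vehicle and 11.56 and 11.74 with AICAR (1.49-fold, log2 0.58, adjusted p = 0.0494). Its 3 probe sets ranged from 0.11 to 0.58, and after median centring it did not pass (adjusted p = 0.0521), nor when any 1 array was left out. PPARGC1A, which encodes PGC-1α, a coactivator named in the series title and a target of TFEB, differed by 0.22 (95% confidence interval 0.014 to 0.42, adjusted p = 0.276). ESRRA, the gene of its partner ERRα, differed by 0.10 (adjusted p = 0.626), and by -0.010 with the mean of its 2 probe sets.

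**Figure D5:**
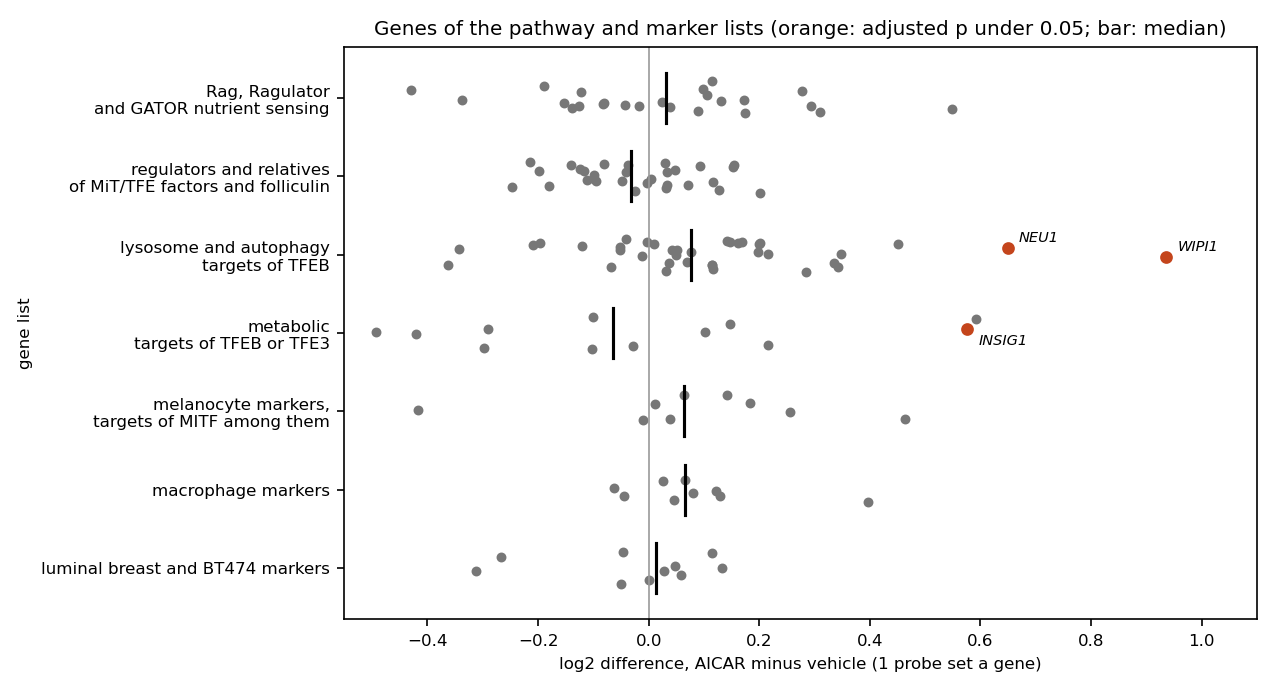
Log2 difference, AICAR minus vehicle (x axis), of each measured gene of 4 pathway lists and 3 marker lists (y axis), by its probe set of highest mean. Orange points passed an adjusted p under 0.05 (NEU1, WIPI1 and INSIG1) and black bars are list medians, which run from -0.064 to 0.078.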

How the data were processed

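Expression was measured on 4 arrays. The authors deposited 1 log2 value per probe set and array, with near-equal array medians, and these were used unchanged. The submitters' processing notes name Affymetrix Expression Console. How it was set up (version, summarization, background) is not given in the sources used here, so differences of dim probe sets may be compressed. Of 54675 probe sets, 62 controls were left out; 41091 of the rest had 1 gene symbol, 1801 several and 11721 no listed gene. Symbols came from the platform annotation, updated through Entrez IDs with the RefSeq table of GRCh38.p14. AICAR minus vehicle was fitted per probe set in R 4.3.3 with limma 3.58.1 (lmFit, then eBayes), with no dim filter, two-sided, with Benjamini-Hochberg adjustment over 54613 probe sets. The smallest p of an exact permutation test of 2 against 2 arrays is 0.333, and no such test is reported. The number of arrays limits the precision; the median SE of a log2 difference was 0.0980.

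On simulated data for this comparison (54613 probe sets, 200 changed, 20 simulations) the fit recovered 1.25% of changes of 0.5 and 81.6% of changes of 1 (log2), with 4.22% of calls false. In the real data 812 probe sets were called, more than the simulation changed. The adjusted threshold is then less strict, so these shares need not hold for the real data. Members and gene lists were chosen with earlier results of these data known. Named were all member probe sets, of each list up to 6 called genes or else the 2 with the largest difference, and PPARGC1A and ESRRA. Of the list genes, 8 had no single-symbol probe set used here. Alternatives were a dim filter, 1 probe set per gene, the mean of a gene's probe sets, quantile normalization, median centring, a trend with robust variances, an adjusted p under 0.1, a replicate block and each array left out.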

Additional observations from a re-analysis of the deposited data

How the results depend on the processing

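On simulated data with 200 probe sets changed, changes of 0.5 (log2) were rarely called over all probe sets. In these data 812 were called, so that low recovery need not hold here. Whether members near that size were called differed with the probe sets tested, the variance model and the threshold. Of the 30 member probe sets, 17 kept the sign of their difference in every alternative run and 13 did not. All probe sets called higher and lower numbered 327 and 485, but 815 and 1384 with dim probe sets left out (fewer tested), 1441 and 2524 with a trend and robust variances, and 897 and 1493 at an adjusted p under 0.1. Member probe sets called higher went from 2 to 6, 9 and 6 in the same order. Member genes by their probe set of highest mean went from 1 to 3, 4 and 3, to 4 with 1 probe set per gene and no dim genes, and to 2 with quantile normalization. In the 4 pathway lists together 3 genes were higher and 0 lower, against 8 and 3 with dim probe sets left out, 8 and 5 with 1 probe set per gene and no dim genes, 11 and 8 with a trend and robust variances, and 5 and 3 at an adjusted p under 0.1. There were 2 lower with the mean of a gene's probe sets and 1 with median centring. The share of all genes called shifted with the setting as well. In the main fit 0.951% of genes were higher and 0.738% lower. With dim probe sets left out these shares were 3.51% and 3.63%. With 1 probe set per gene and no dim genes, 4.63% were higher. The settings with 1 value per gene give no count of probe sets. Leaving out dim probe sets changed both the number tested and the estimated variances, and their parts were not told apart. Apart from a looser threshold, the causes of these differences were not tested.

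With 1 array left out, 0 to 1 probe sets were called higher and 0 lower, 0 member probe sets, 0 member genes and 0 list genes. Such a fit has 3 arrays, and its lone array is assumed to vary like the other group. Replicate numbers are shared by the groups, but same-numbered arrays did not deviate together (r = -0.0677 over probe sets, which are not independent). With the replicate block 379 probe sets were higher and 581 lower, 2 of them members, both of GPNMB.

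Signs turned for TFE3 212457_at with quantile normalization (0.028), for FLCN 215645_at (0.11) and ESRRA (-0.010) with the mean of a gene's probe sets. Without 1 array, TFEB 50221_at ranged from -0.12 to 0.20, TFE3 212457_at from -0.050 to 0.038, 206649_s_at from -0.039 to 0.14, 1567704_at from -0.14 to 0.038 and 1565347_s_at from -0.26 to 0.11. MITF 1554874_at ranged from -0.16 to 0.10. FLCN 215645_at ranged from -0.091 to 0.024, 1552664_at from -0.029 to 0.34 and 243062_at from -0.29 to 0.060. FNIP1 223997_at ranged from -0.078 to 0.041, 1559060_a_at from -0.12 to 0.33 and 243861_at from -0.032 to 0.024, and RRAGC 242531_at from -0.010 to 0.19.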

Other observations

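With dim probe sets left out and p adjusted over the remaining 29953, 8 genes of the pathway lists were called higher with AICAR and 3 lower (limma), against 3.51% and 3.63% of the 13842 genes read the same way. The lists held 24, 30, 37 and 12 measured genes, of which TFEC and PIP4P2 were dim and so left out. MCOLN1 stood on both the regulator and the lysosome list. Only WIPI1, NEU1 and INSIG1 among the called genes also passed over all probe sets. The others called higher were the lysosomal proteases TPP1 (log2 0.45, adjusted p = 0.0346) and CTSB (0.34, 0.0499), the alpha-galactosidase GLA (0.35, 0.0483), the autophagosome protein gene MAP1LC3B (0.34, 0.0473) and the stress cytokine GDF15 (0.59, 0.0322). Those called lower were the cyclin CCND1 (log2 -0.49, adjusted p = 0.0230), the stress-response factor ATF4 (-0.42, 0.0307) and ITFG2 (-0.43, 0.0330). Other probe sets of some of these genes gave no such difference: the lowest was -0.034 for TPP1, -0.0050 for CTSB, -0.16 for MAP1LC3B and -0.070 for GDF15. These genes were named after their values were seen.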
